A study of Drosophila melanogaster with 3 samples.

Results

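The 10 genes of the Hippo growth-control pathway examined here are hpo, sav, wts, mats, yki, sd, ex, Mer, kibra and jub. They are a list of named genes, and all 10 were found among the 13945 protein-coding genes on the 6 chromosome arms that carried peaks. The data are a chromatin immunoprecipitation and sequencing (ChIP-seq) experiment that mapped binding of Tap, a basic helix-loop-helix transcription factor of the neurogenin family, in Drosophila melanogaster embryos. The single group held 3 biological replicates of whole embryos, mixed in sex and aged 6 to 16 h, from a transgenic line stably expressing tap with eGFP fused to its C-terminus. Chromatin was recovered with an antibody against GFP. The tagged protein was followed in all tissues of the embryo at once, so the peaks do not tell in which cells it was bound. Each replicate list and the list made from the pooled replicates held 30000 peaks, and a set of 4336 peaks had been thresholded by the authors with the irreproducible discovery rate (IDR). Peaks carry the authors' signal value, which differs in scale between lists, so strength is given as the rank within a list, with rank 1 the strongest. No read counts accompany the peaks, so the depth behind each of them is unknown.

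The Hippo pathway restrains tissue growth. The kinase Hippo (hpo), with its adaptor Salvador (sav), activates the kinase Warts (wts), whose own adaptor is Mats (mats), and Warts phosphorylates the coactivator Yorkie (yki) and keeps it out of the nucleus. Unphosphorylated Yorkie works with the DNA-binding protein Scalloped (sd) to raise the expression of growth and survival genes. Expanded (ex), Merlin (Mer) and Kibra (kibra) act at the apical cortex to switch the kinases on, the Ajuba protein Jub (jub) holds Warts in check at cell junctions, and ex and kibra are also known as transcriptional targets of Yorkie.

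Thresholded peaks were found at the upstream regulators ex, Mer and kibra and at the cassette genes wts, sav and mats, whereas hpo, yki, sd and jub had none. Each summit went to whichever protein-coding gene had the closest transcription start site (TSS). By this rule 6 of the 10 genes had at least 1 thresholded peak, against 18.9% of all protein-coding genes (2641 of 13945). When thresholded peaks also had to be strong in both replicates 1 and 3, with replicate 2 left out, 3 of the 10 genes (ex, Mer and kibra) kept one, against 12.4% of all genes. In the replicates, counting the 4336 strongest peaks of each, 4, 7 and 5 of the 10 genes had a peak in replicates 1, 2 and 3 (mean 5.33 ± 1.53, SD, n = 3), where 19.2%, 19.5% and 19% of all genes had one. The 6 genes shared 9 thresholded peaks, of which 4 belonged to kibra and 1 to each of the others. Kibra was thus the one gene of the list with 4 thresholded peaks. That number was reached or passed by 1.36% of all protein-coding genes, or 190 of the 2641 with a thresholded peak. The share among genes with as much surrounding sequence as kibra is not given here. Among genes with a thresholded peak, the median rank of the strongest peak was 1787 for the 6 genes and 1729 over all 2641, so the 6 genes stood close to the middle of all bound genes.

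**Figure D1:**
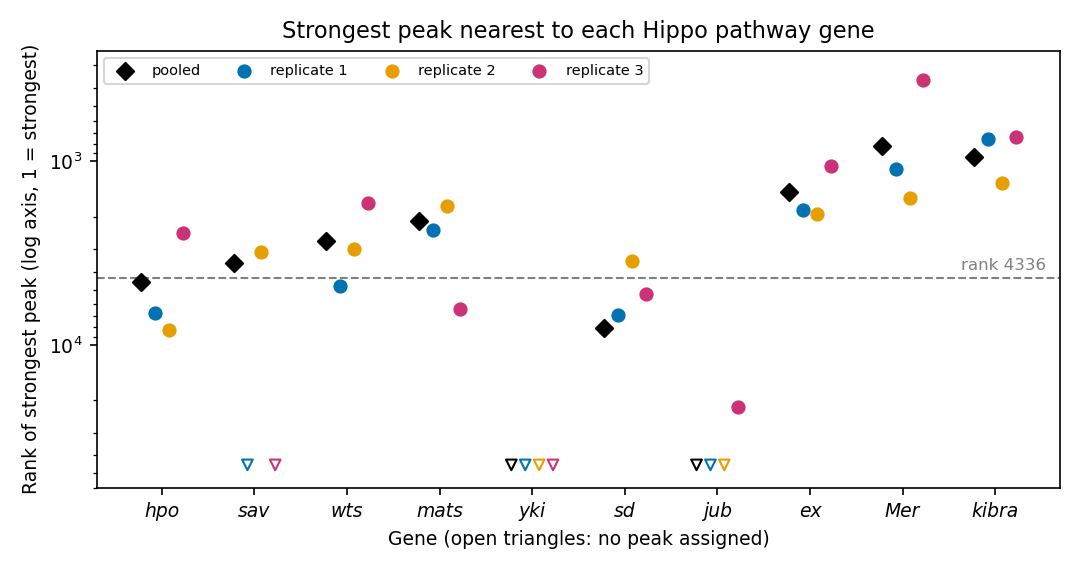
Rank of the strongest peak assigned to each gene (log axis, 1 is the strongest) in the pooled list (diamonds) and in replicates 1, 2 and 3 (circles), with open triangles where no peak was assigned and a dashed line at rank 4336. For ex, Mer and kibra all 4 symbols lie above the line, and yki has no assigned peak in any list.

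Genes with more surrounding sequence collect more peaks under a nearest-TSS rule, and the Hippo genes differ widely in this respect. The length of genome nearest to their TSSs ran from 1.27 kb for sav to 19.0 kb for sd, with a median of 4.91 kb, close to the 4.25 kb of all genes. When all genes were divided into 10 equal groups by this length, the share with a thresholded peak was 9.61% in the group that holds sav, 10.5% in that of mats and yki, and 11.7% in that of hpo and Mer. It was 20.5% for jub, 26% for wts, and 33.1% for ex, kibra and sd. The 10 genes together had 9 thresholded peaks in 79.0 kb, or 1.14 per 10 kb, against 0.324 per 10 kb over the genome. Without kibra the density was 0.792 per 10 kb. In the pooled list the 10 genes had 5.19 per 10 kb (41 peaks), against 2.24. Both genome densities include the longest group of genes, with 21.7 to 1915 kb each, which holds none of the 10 genes. The part of this in the difference was not tested.

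The strongest peaks by signal belonged to the apical regulators. The q-value does not separate them from the peaks of mats and wts, since the best peaks of Mer, kibra, ex, mats and wts are tied at its maximum, where all share a rank of 1622. Merlin, the fly counterpart of the human tumour suppressor NF2, is encoded by Mer (FBgn0086384, chrX:19689697-19693500 in dm6, minus strand) and had the strongest peak of the list. It lay at chrX:19693263-19693478, with its summit 72 bp downstream of the TSS in the first intron, at rank 827 with a signal of 463.3. Its ranks were 1101, 1582 and 360 in replicates 1, 2 and 3 (mean 1014 ± 616, SD, n = 3), so all 3 replicates placed it far inside their strongest 4336. The next protein-coding TSS, that of CG14229, was 1630 bp from the summit, and this promoter is not shared with a close divergent neighbour. The intron side of the peak is shown, since it holds the summit, read on the gene's strand from the splice donor onwards and leaving out the 5′ untranslated region (chrX:19693328-19693435).

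Mer first intron: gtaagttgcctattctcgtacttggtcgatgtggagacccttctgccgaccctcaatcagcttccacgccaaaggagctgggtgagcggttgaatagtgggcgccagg

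This stretch of 108 bases had 56.5% GC and no E-box, the CANNTG sequence that basic helix-loop-helix factors bind. In 100 bp about the summit the GC content was 49%, the highest of the 9 peaks. One E-box, CAATTG, lay 31 bp from the summit on the side of the TSS.

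Expanded, a FERM-domain protein that acts beside Merlin, is encoded by ex (FBgn0004583, chr2L:431227-448701, plus strand). A single thresholded peak was assigned to it, at chr2L:430992-431118, with the summit 194 bp upstream of the TSS, rank 1468 and a signal of 322. Replicates 1, 2 and 3 gave it ranks of 1846, 1946 and 1057 (mean 1616 ± 487, SD, n = 3), again all among the strongest. No other protein-coding TSS lay within 8160 bp of this summit. The sequence of the ex promoter, 100 bases to each side of the summit (chr2L:430933-431133, plus strand), is given because it held none of the motifs searched.

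ex promoter: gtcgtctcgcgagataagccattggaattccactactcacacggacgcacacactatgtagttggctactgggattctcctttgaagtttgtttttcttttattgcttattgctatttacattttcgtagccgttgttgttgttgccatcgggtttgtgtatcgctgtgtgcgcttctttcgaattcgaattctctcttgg

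A stronger peak lay inside ex than at its promoter. This intronic peak, at chr2L:442010-442226, ranked 894 with a signal of 444.3 and was found at ranks 1264, 1161 and 541 in replicates 1, 2 and 3 (mean 989 ± 391, SD, n = 3). Its summit was 10890 bp from the TSS of ex and 9185 bp from that of crq, a scavenger receptor gene, so the nearest-TSS rule gave it to crq. The closest annotated TSS of any gene was that of the noncoding lncRNA:CR43717, 2578 bp away. The pooled list held 2 further weak peaks in the body of ex that went to crq, at ranks 19515 and 22112, and 5 weak ones that went to ex, the best at rank 5551. That peak was at ranks 3861 and 3741 in replicates 1 and 2 and had no counterpart within 200 bp in replicate 3.

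Kibra, a WW-domain scaffold that brings Merlin and Expanded together, is encoded by kibra (FBgn0262127, chr3R:14697689-14724261, minus strand), the longest gene of the list at 26573 bp with a single annotated TSS. It carried the most peaks of the list, 4 thresholded and 15 in the pooled list. The promoter peak (chr3R:14724215-14724590, summit 142 bp upstream) had rank 1606 and a signal of 304.8. Its ranks of 1802, 2014 and 741 in replicates 1, 2 and 3 gave a mean of 1519 ± 682 (SD, n = 3). The sequence is printed from chr3R:14724303-14724503 on the gene's strand, with TATCGATA, the core of the DNA replication-related element found at many fly housekeeping promoters, in capitals.

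kibra promoter: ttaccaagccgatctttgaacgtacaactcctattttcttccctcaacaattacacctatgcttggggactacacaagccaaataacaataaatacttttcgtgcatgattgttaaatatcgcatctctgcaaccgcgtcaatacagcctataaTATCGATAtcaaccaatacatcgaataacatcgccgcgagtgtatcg

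TATCGATA was found at this 1 summit of the 9, and within 100 bp of 1.96% of all 4336 thresholded summits.

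The other 3 thresholded peaks of kibra were intronic. The strongest, at chr3R:14714657-14714751 and 9511 bp downstream of the TSS, ranked 948 with a signal of 429.7, and ranked 757, 1312 and 983 in replicates 1, 2 and 3 (mean 1017 ± 279, SD, n = 3). This was the smallest SD of the 9 peaks. In replicate 3 the summit of the matched peak was 129 bp away, and in replicates 1 and 2 it was 39 and 1 bp away. The interval was only 95 bp long, with the summit at its edge, and the surrounding sequence (chr3R:14714650-14714850, shown on the gene's strand) contained a low-complexity stretch of A and T.

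kibra intron, 9511 bp from the TSS: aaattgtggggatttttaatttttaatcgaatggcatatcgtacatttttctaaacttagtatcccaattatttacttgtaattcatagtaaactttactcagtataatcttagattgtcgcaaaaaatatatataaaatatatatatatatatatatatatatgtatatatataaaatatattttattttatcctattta

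It holds a run of 26 bases of strictly alternating A and T. A run of 20 or more, a length chosen after the sequence had been seen, occurred near 2 of the 4336 thresholded summits (0.0461%). GC content was 19% in 100 bp about the summit. The part of this repeat in the peak was not tested.

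The intronic summit 2147 bp downstream of the kibra TSS (chr3R:14722063-14722186, rank 1659, signal 298.3) differed from the rest of the list in its E-boxes, of which it had 4 within 100 bp. In replicates 1, 2 and 3 it ranked 1820, 2187 and 1501 (mean 1836 ± 343, SD, n = 3), so it was among the strongest 4336 in each. Its sequence is printed from chr3R:14722014-14722214 on the gene's strand, with the E-boxes in capitals.

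kibra intron, 2147 bp from the TSS: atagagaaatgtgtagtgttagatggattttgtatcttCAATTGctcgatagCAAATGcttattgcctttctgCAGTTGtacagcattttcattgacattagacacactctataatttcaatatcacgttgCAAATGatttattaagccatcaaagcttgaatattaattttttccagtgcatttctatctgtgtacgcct

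On this strand the hexamer CAAATG occurs at a pair of these E-boxes. The others read CAATTG, nearest the start of the printed stretch, and CAGTTG, nearer the middle. The remaining intronic peak (chr3R:14715185-14715560, 8888 bp downstream, rank 2738, signal 210.8) had 2 E-boxes, and its replicate ranks were 3316, 4023 and 1822 (mean 3054 ± 1124, SD, n = 3).

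Further thresholded peaks near kibra were assigned to its downstream neighbour Meltrin, a metalloprotease gene. One lay inside the kibra body at chr3R:14707046-14707143, 17143 bp from the kibra TSS and 9826 bp from that of Meltrin, at rank 2489. Its summit was 68 bp from the annotated start of an INE-1 transposable element, and it ranked 3730, 4151 and 1357 in the replicates (mean 3079 ± 1506, SD, n = 3). The second was at the Meltrin promoter itself, at rank 2243, with ranks of 1901, 1840 and 9741. Replicate 3 placed this promoter peak much lower than the other two replicates did.

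**Figure D2:**
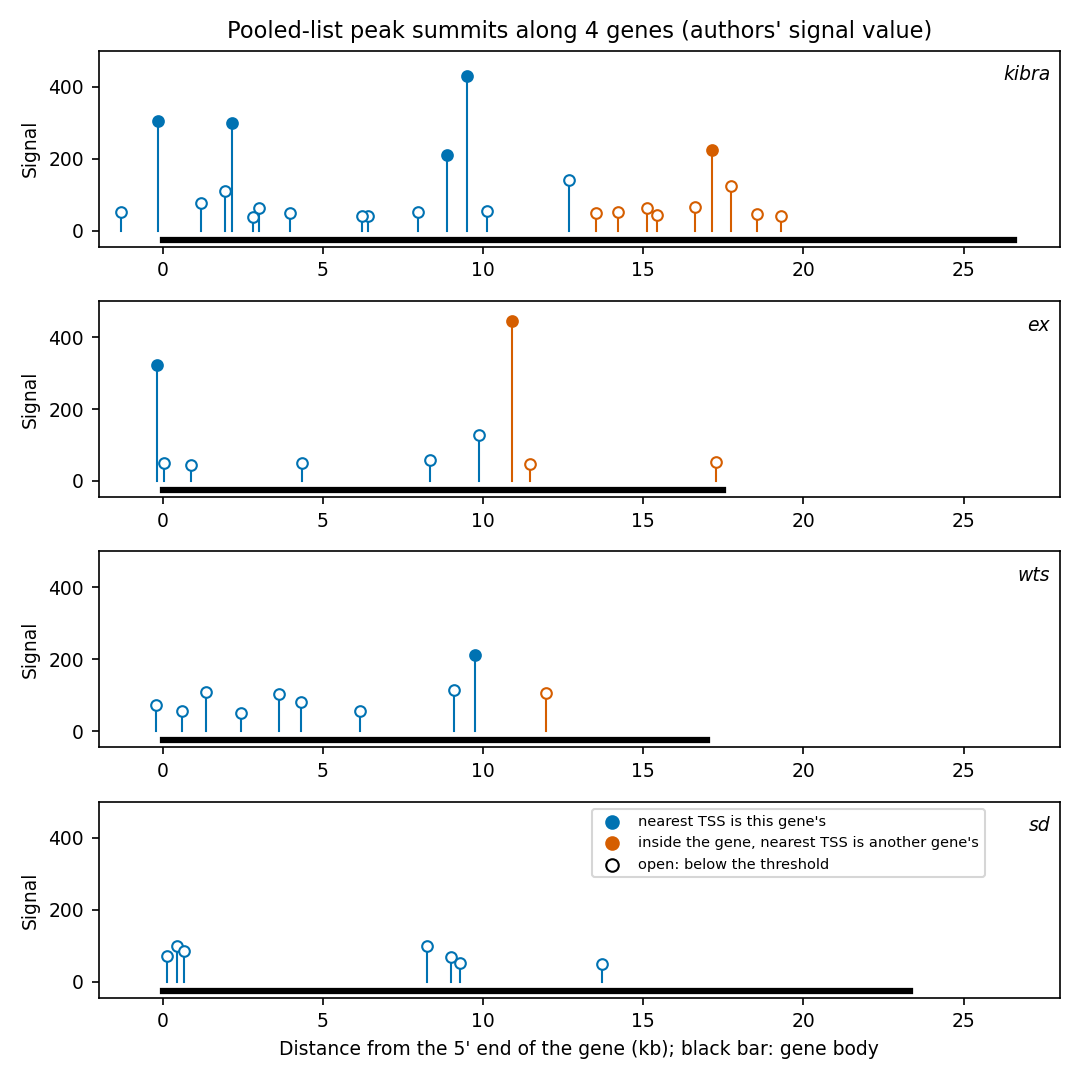
Peak summits of the pooled list along kibra, ex, wts and sd, by distance from the gene's 5′ end (kb, in the direction of transcription) and by the authors' signal value. Filled symbols are thresholded peaks, open ones lie below the threshold, blue marks peaks whose nearest TSS is the gene's own and orange those inside the gene but nearer to another TSS, such as the ex intronic peak with a signal of 444.3.

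Of the core cassette, wts, sav and mats each had 1 thresholded peak, and each of these had a lower signal than those of ex and Mer. Warts, the kinase that phosphorylates Yorkie, is encoded by wts (FBgn0011739, chr3R:30789625-30806619, minus strand). Its thresholded peak was intronic, at chr3R:30796870-30796966 and 9745 bp from the TSS, with rank 2715 and a signal of 211.6. The replicate ranks were 4854, 3010 and 1692 (mean 3185 ± 1588, SD, n = 3), so in replicate 1 it fell outside the strongest 4336. At the wts promoter the pooled list had a weak peak 212 bp upstream, at rank 12798, matched at rank 4938 in replicate 2 and 16977 in replicate 1. In replicate 3 no summit lay within 200 bp of it, but a peak at rank 5234 had its summit 59 bp downstream of the TSS. A thresholded peak assigned to cindr, at rank 3685, had its summit nearer the wts TSS, 1804 bp away. For the intronic wts summit, the closest annotated TSS of any gene was that of mir-1013, at 5178 bp. The intronic sequence (chr3R:30796774-30796974, on the gene's strand) is shown as the only thresholded site assigned to the kinase gene, and it contains none of the searched motifs.

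wts intron: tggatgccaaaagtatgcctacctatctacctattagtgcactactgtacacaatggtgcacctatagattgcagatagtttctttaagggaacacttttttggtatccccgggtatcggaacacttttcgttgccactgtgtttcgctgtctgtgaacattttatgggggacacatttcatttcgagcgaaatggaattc

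The pooled list gave wts 9 peaks in all, 8 of them within or just upstream of the gene at ranks of 6632 to 21182. A further peak in the wts body, at rank 7483, was assigned to the transcription factor gene zfh1.

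Mats, the Mob-family adaptor of Warts, is encoded by mats (FBgn0038965, chr3R:22421161-22423302, plus strand). Its peak at chr3R:22421744-22421887 had rank 2106 and a signal of 252.9, with the summit in an intron 489 bp downstream of the nearer of its 2 TSSs. In replicates 1, 2 and 3 it ranked 2366, 1744 and 6402 (mean 3504 ± 2529, SD, n = 3), the last outside the strongest peaks. Between mats and the nucleolar protein gene Nop56, whose divergent TSSs are 93 bp apart, there was a peak just below the threshold, at rank 4566 and 58 bp from a mats TSS. That peak was assigned to Nop56, and its replicate ranks were 12840, 5070 and 4042.

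Salvador, the WW-domain adaptor of Hippo, is encoded by sav (FBgn0053193, chr3R:23058609-23061304, minus strand). Its thresholded peak was the weakest of the list, at chr3R:23061201-23061576 with rank 3597 and a signal of 175.1. The summit fell between the divergent TSSs of sav, 85 bp away, and of the phosphatase gene Ublcp1, 104 bp away, so the peak belongs to a shared promoter. Ranks of 3687, 3132 and 16783 in replicates 1, 2 and 3 (mean 7867 ± 7726, SD, n = 3) gave it the largest SD of the 9. In replicates 1 and 3 the matched summits were nearer to the Ublcp1 TSS, and neither list assigned sav a peak. The intergenic sequence (chr3R:23061305-23061489, on the strand of sav) is shown for its A and T content, with GGAATG, the core of the sequence recognised by Scalloped and other TEAD proteins, in capitals.

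sav and Ublcp1 shared promoter: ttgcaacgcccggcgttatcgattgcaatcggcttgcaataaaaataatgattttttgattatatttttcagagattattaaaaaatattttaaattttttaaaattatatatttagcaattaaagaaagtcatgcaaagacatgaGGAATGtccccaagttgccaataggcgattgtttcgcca

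The 100 bp about the summit had 16% GC, the lowest of the 9 peaks, and a run of 42 bases held A and T alone. GGAATG or its complement was near 1 of the 9 summits and 6.07% of all thresholded summits.

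The kinase gene hpo (FBgn0261456, chr2R:19493996-19496856, minus strand) fell just short of the threshold. Its single pooled peak lay 124 bp upstream of the TSS at rank 4561 with a signal of 147.8, where the weakest of the 4336 thresholded peaks had a signal of 153.4. It ranked 6689, 8303 and 2460 in replicates 1, 2 and 3 (mean 5817 ± 3017, SD, n = 3), so replicate 3 alone had it among its strongest 4336. The strongest peak of the list below the threshold was thus that of hpo, and the weakest above it that of sav.

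Yorkie, the coactivator that the pathway restrains, is encoded by yki (FBgn0034970, chr2R:24065975-24068485, minus strand). No list assigned it a peak, yet a thresholded peak lay beside its start. The divergent TSS of Gpat4 is 272 bp from that of yki, and a peak at chr2R:24068725-24069100 had its summit 137 bp from a Gpat4 TSS and 428 bp from the yki TSS. It had rank 2529 and a signal of 222.7, and ranks of 3388, 2239 and 1407 in replicates 1, 2 and 3 (mean 2345 ± 995, SD, n = 3). All 3 replicates therefore placed it among their strongest, on the Gpat4 side. A weak pooled peak at rank 18225 in the 3′ untranslated region of yki was assigned to Rap2l.

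Scalloped, the TEAD-family partner of Yorkie, is encoded by sd (FBgn0003345, chrX:15804370-15827682, plus strand), which has 7 annotated TSSs. The pooled list gave it 7 peaks, all within 500 bp of one of these TSSs and none above the threshold. The best had rank 8108 and a signal of 99.1, and the ranks of the others ran from 8186 to 21121. In replicates 1, 2 and 3 the best rank of the gene was 6871, 3472 and 5252 (mean 5198 ± 1700, SD, n = 3), from summits at different positions. The best pooled peak had a match at ranks 17572 and 3472 in replicates 1 and 2 and none in replicate 3. The next, 456 bp from a TSS, was the one sd peak matched in all 3 replicates, at ranks 6871, 12384 and 7490 (mean 8915 ± 3020, SD, n = 3). The matched summits were 174, 167 and 124 bp away. Those of replicates 1 and 2 lay only 26 and 33 bp from another pooled sd peak, at rank 10132, and were matched to it as well.

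The gene jub (FBgn0030530, chrX:13826041-13830317, minus strand) was the emptiest locus of the list. The nearest pooled summit of any assignment lay 7541 bp from its TSS. Replicates 1 and 2 had no peak assigned to it, and replicate 3 had 2, at ranks 21854 and 29098. Among genes with a similar length of surrounding sequence 20.5% had a thresholded peak, so a gene without one was the usual case.

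**Figure D3:**
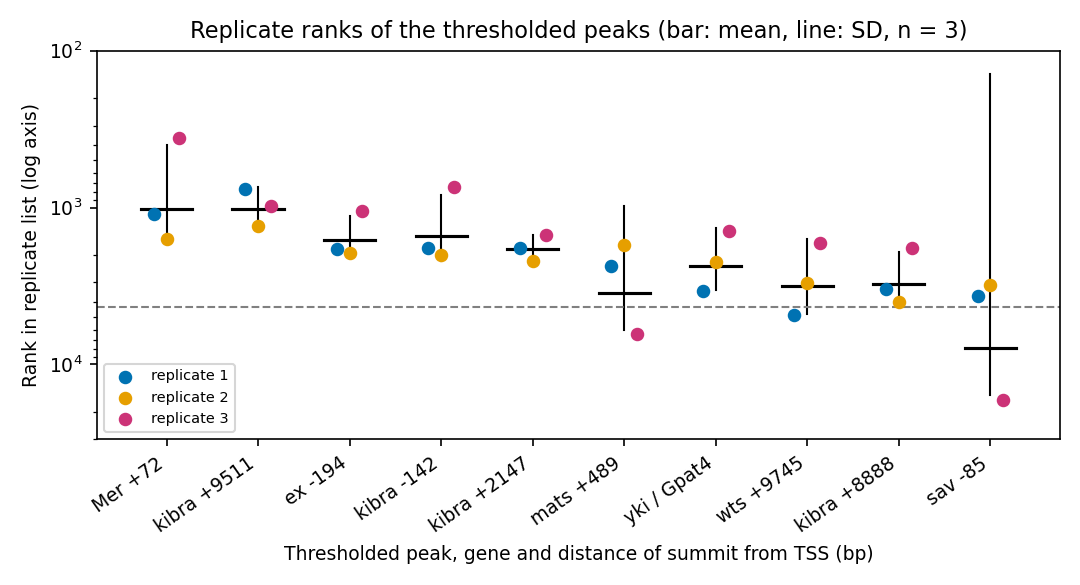
Rank of each thresholded peak, and of the peak beside yki that was assigned to Gpat4 (log axis), in replicates 1, 2 and 3 (circles), with the mean as a bar and the SD as a vertical line (n = 3), and a dashed line at rank 4336. Each peak is placed at its best-ranked match within 200 bp. The peaks of Mer, ex and kibra lie above the line in all 3 replicates. Replicate 3 puts those of mats and sav at 6402 and 16783.

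The regulators had strong peaks in every replicate, and the cassette genes did not. All 9 thresholded peaks had a summit within 200 bp in each full replicate list, as did 3898 of all 4336 thresholded peaks. Within 100 bp, 7 of the 9 did. Among the strongest 4336 of replicates 1, 2 and 3 were 8, 9 and 7 of the 9. Over all thresholded peaks these shares were 82.9%, 81.3% and 67.2%. The 6 peaks that were strong in all 3 replicates were those of ex, Mer and kibra, and over all thresholded peaks 49.4% were strong in all 3. Both figures take the best-ranked summit within 200 bp as the match. For the kibra promoter peak this was 174 bp away in replicate 1, where a nearer summit ranked 4465. Counted by gene, ex, Mer and kibra were the 3 of 10 with a strong peak in every replicate, against 12.2% of all protein-coding genes (1705 of 13945). Replicate 3 differed from the others in both directions. It ranked the peaks of hpo, wts, Mer and ex and 3 of the 4 of kibra higher than both other replicates did, and those of mats and sav lower.

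A summit could lie near a gene's TSS without being assigned to that gene, as at yki. A thresholded summit lay within 500 bp of a TSS of 6 of the 10 genes (sav, mats, yki, ex, Mer and kibra), against 13.9% of all protein-coding genes. In the strongest peaks of replicates 1, 2 and 3 the number was 6, 7 and 5 (mean 6 ± 1, SD, n = 3), against 15.1%, 15.3% and 14.3% of all genes. Within 200 bp the count was 4, with mats and yki dropping out, against 9.31% of all genes. The pooled list, which reaches far weaker peaks, assigned a peak to 8 of the 10 genes, where 48.2% of all genes had one, and it had a summit within 500 bp of a TSS for 9 of them, where 37.8% of all genes did, jub being the exception. Of the 41 pooled peaks of the list, 16 were at promoters, 22 in introns, 2 in 5′ untranslated regions and 1 in a coding exon.

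Several of the genes share a promoter region with a divergent neighbour. For sav, wts, mats, yki and sd a divergent protein-coding TSS lay within 500 bp, at 189, 498, 93, 272 and 490 bp, and for hpo at 896 bp. This made 5 of 10, against 25.3% of all protein-coding genes. Over the whole genome 16.5% of genes with such a neighbour were assigned a thresholded peak, against 19.8% of the others. The nearest-TSS rule gives a peak in a shared promoter to a single gene of the pair, which limits this comparison. Of the 5 Hippo genes with such a neighbour, 3 had a thresholded peak (sav, wts and mats). The genes with the strongest assigned peaks, ex, Mer and kibra, had no such neighbour, and neither did jub.

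Base composition at the summits was like that of other thresholded peaks, and how the share with an E-box compared depended on the window. The GC content in 100 bp about the 9 summits ran from 16% to 49%, with a median of 33%, and the median over all thresholded summits was 31%, with quartiles of 26% and 38%. An E-box lay within 100 bp of 3 of the 9 summits, Mer and 2 in kibra, and of 59.8% of all thresholded summits. Within 50 bp the figures were 3 of 9 and 33.8%, and within 150 bp 6 of 9 and 76.6%. Of the other sequences searched on both strands, GAGAGAG and CACACACA were at 0 of the 9 summits and at 3.9% and 3.71% of all, and a run of 8 A or T bases of one kind was at 1 of 9, that of mats, and at 12% of all. With 9 peaks from 6 genes, 4 of them in 1 gene, these shares are descriptions of the loci.

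**Figure D4:**
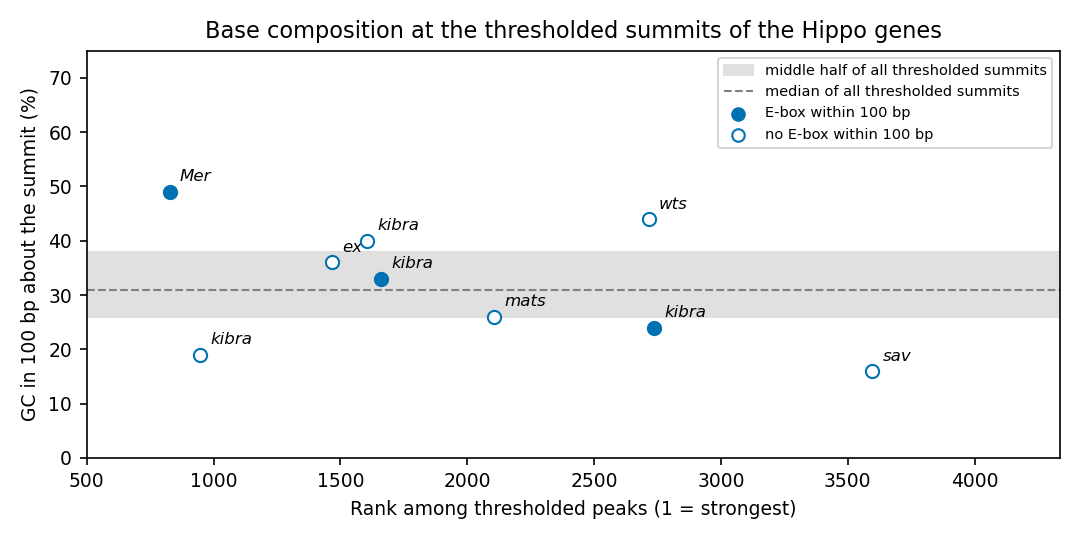
GC content in 100 bp about each of the 9 thresholded summits (%), against the rank of the peak, filled where an E-box lies within 100 bp. The grey band (26% to 38%) and dashed line (31%) are the quartile range and median of all 4336 thresholded summits, and the peaks of sav and of the kibra introns at ranks 948 and 2738 lie below the band.

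Other genes of the pathway, a list of 61 matched to the annotation and grouped by role, were described in the same way. Of these, 29 had a thresholded peak (47.5%, against 18.9% of all genes), and 29, 30 and 31 had a strong peak in replicates 1, 2 and 3 (mean 49.2% ± 1.64, SD, n = 3). These genes have more surrounding sequence than most, with a median of 12.6 kb nearest to their TSSs against 4.25 kb. Of all genes in the length group that holds this median (12.3 to 21.7 kb), 33.1% had a peak, and of those in the longest group 43.9%. How far this length accounts for the count was not tested.

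Known transcriptional targets of Yorkie held the most peaks, 28 at 7 of 8 genes, with vn the exception. They also had the longest surroundings, a median of 28.7 kb. Of all genes 18.9% had a peak, and of those in the longest group 43.9%. Diap1, which encodes an inhibitor of apoptosis, had 6 peaks, the best in an intron 673 bp from a TSS at rank 354 and at ranks 369, 337 and 495 in the replicates. CycE, the cyclin that drives entry into S phase, had a promoter peak at rank 578 that ranked 451 and 331 in replicates 1 and 2 but 14920 in replicate 3. The best peak of wg, the Wnt ligand gene, had rank 1254 and lay 11088 bp from the TSS, and that of the S-phase transcription factor gene E2f1 had rank 1536. Of the 8 genes, 7, 6 and 6 had a strong peak in replicates 1, 2 and 3.

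Upstream of the kinases, 5 of 7 genes of the Fat and Dachsous branch had a peak (71.4%, against 18.9% of all genes). Their median surrounding length was 14.5 kb, and of all genes in that length group 33.1% had a peak. The Fat branch peaks were led by the casein kinase gene dco (rank 738) and the palmitoyltransferase gene app (rank 744, at the promoter). The cadherin genes ds (rank 1106) and ft (rank 2324) followed. Of 10 polarity and junction genes, with the same median length of 14.5 kb, 5 had a peak (50%). The adhesion gene ed was at rank 807, crb, the apical determinant, at 1174, dlg1 at 1839 and scrib at 2242. Of 13 kinases, Rassf and phosphatase subunits, 5 had one (38.5%). Their median length was 6.23 kb, and 20.5% of all genes in that length group had a peak. Among the 5 were the kinase genes msn (rank 392, with 6 peaks) and hppy (1272), the STRIPAK scaffold gene Cka (1461) and Sik3 (2811). The Hippo-activating kinase gene Tao had no peak in the pooled list.

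Among partners of Yorkie and Scalloped, 5 of 13 had a thresholded peak (38.5%). Their median surrounding length was 10.5 kb, and 26% of all genes in that length group had a peak. Trl, which encodes GAGA factor, had the strongest at rank 16, followed by the Smad gene Mad at rank 211, the homeobox gene hth at rank 492 with 9 peaks in 134 kb, and 14-3-3zeta, whose protein binds phosphorylated Yorkie, at rank 1819. The vestigial gene vg, another partner gene of Scalloped, had no pooled peak. Of 10 spectrin and actin regulators, 2 had a peak, sqh (myosin light chain, rank 1002, at the promoter) and conu (rank 3926). That share of 20% was close to the 18.9% of all genes, and the replicate counts of 2, 4 and 1 were uneven.

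**Figure D5:**
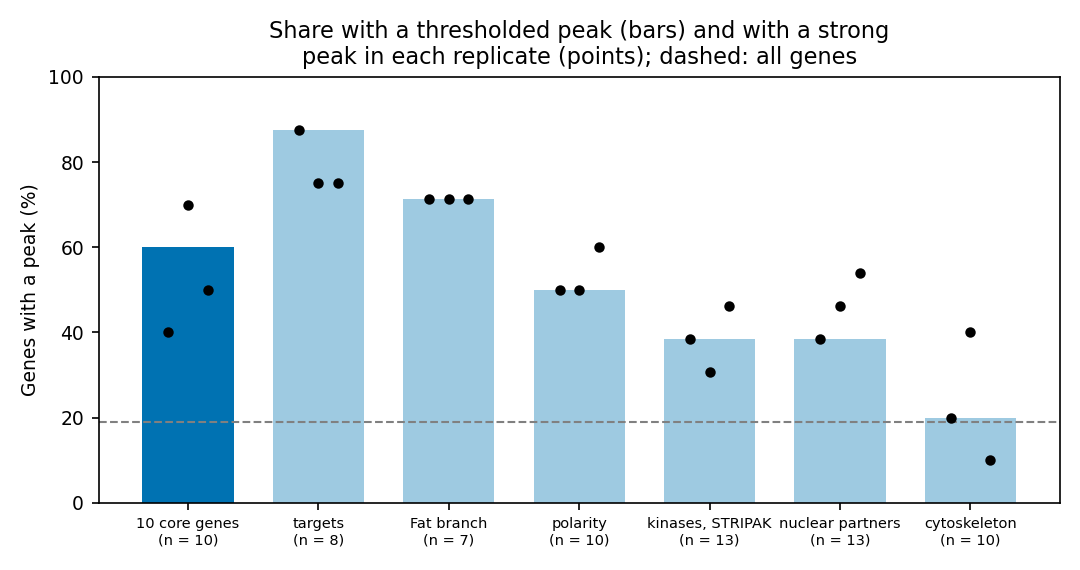
Share of genes (%) with a thresholded peak (bars) and with a peak among the 4336 strongest of each replicate (points) for the 10 Hippo genes and 6 role groups of other pathway genes, with the 18.9% of all protein-coding genes as a dashed line. Targets stand at 87.5% and cytoskeleton genes at 20%.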

How the data were processed

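Peak lists from 3 biological replicates were used as deposited, with dm6 coordinates per the labels. Per the file notes deposited with the samples, each replicate list came from that replicate's alignments and 1 control file, the pooled list from all 3, and the thresholded set was obtained by IDR. Each peak has the authors' signal value and a −log10 q-value, as deposited. The latter is tied at its maximum for 3243 of the 4336 thresholded peaks, so it was used in an alternative ranking alone. Caller, aligner, filters and the threshold used for IDR: not given in the sources used here. Depth is unknown, and the control was not analysed here.

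Summits (peak start plus offset) were assigned to the nearest protein-coding TSS of Ensembl release 115, ties going to the first gene identifier. Between lists, each was matched to the best-ranked peak with a summit within 200 bp, which need not be the nearest. Promoter means within 500 bp of an annotated TSS other than a transposable element's. Sequences were read from RefSeq's file of that assembly. Replicate error is the SD of ranks or counts (n = 3). No test was made: there is 1 group and no control list. Assignment and matching were tested on simulated summits. For matching, the check was that a summit within 200 bp was found, and it could not detect a wrong partner. Named genes were the 10 Hippo genes and, in each role group, up to 4 with the strongest thresholded peak, and genes sharing a peak's locus. Genes named for having no peak, Tao, vg and vn, were added after their values were seen. The genes and lists were chosen with earlier results of these data known, and the motifs after the files were seen. Listed symbols d and Nlk were not matched and were left out. Python 3.11.15 and pandas 2.3.3 were used.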

Additional observations from a re-analysis of the deposited data

How the results depend on the processing

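Hippo genes with a thresholded peak (6, where 18.9% of all genes had one) numbered 5 by the nearest TSS of any annotated gene (16.5%), 7 by extended gene bodies (22.7%), 5 within 5000 bp of a TSS (16.5%) and 6 by peak midpoints (18.9%). The 2168 strongest thresholded peaks left 4, those of mats, ex, Mer and kibra, and 19 of the other pathway genes in place of 29, where 11.4% of all genes had a peak. Keeping only thresholded peaks that were strong in both remaining replicates gave 3 to 5 Hippo genes when 1 replicate was left out, with the 3 (ex, Mer and kibra) when replicate 2 was left out, and 24 to 26 of the other pathway genes. Over all genes these settings gave 12.1% to 14.8%. Those settings kept 6 to 8 of the 9 peaks. With gene bodies extended by 1000 bp the peaks numbered 13, the additional ones being those of Gpat4, crq and Meltrin described above, and yki then counted as bound. Genes strong in all 3 replicates numbered 3, where 12.2% of all genes were. With 1 replicate left out they numbered 3 to 4, a count for which no share over all genes is given here. With the 10000 strongest peaks of each replicate they numbered 7, where 21% of all genes did. An E-box lay within 150 bp of 6 summits in place of 3 within 100 bp, a longer window by construction. The remaining alternatives to a count stayed within 1.5 times of it, and the mean GC content was 28.4% in 50 bp and 35.9% in 200 bp about the summit, against 31.9%. No paired analysis was possible because there is 1 group. Depth and the control library limit all ranks in ways that these lists do not show.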
